A study of Homo sapiens with 4 samples.

Results

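The 10 genes described here encode receptor tyrosine kinases of the FGF, PDGF/KIT, MET, AXL and VEGF families, namely FGFR1, FGFR2, FGFR3, FGFR4, PDGFRA, PDGFRB, KIT, MET, AXL and KDR. They were chosen by name and not by a cutoff on their measured values, though with earlier results of these data known. All 10 were among the 18449 genes of the filtered count table and among the 18066 genes with at least 1 count that were tested. Bulk RNA-seq had been performed on BT-16 and CHLA-266, patient-derived cell lines of the MYC subgroup of atypical teratoid/rhabdoid tumor (AT/RT-MYC), an embryonal brain tumor of early childhood that is defined in most cases by loss of SMARCB1. Each line gave 1 untreated library and 1 library of cells that had regrown after 1 µM doxorubicin, 5 µM etoposide and 1 µM vincristine, added one after the other at intervals of 24 h, with about 35 days until resistant cells were collected. Treated cells therefore differ from untreated cells by the drugs, by the time in culture and by the survival of few cells, and these cannot be told apart. The labels give all 4 libraries the same batch. The 2 replicates of a condition are the 2 cell lines, and each line itself was measured once per condition. Without the cell line in the model, p-values therefore rest on the spread between lines. With both line and treatment in the model, they rest on how far the treated to untreated difference varied between the 2 lines. In both cases the fit also shares information on variance between genes.

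Receptor tyrosine kinases bind a ligand outside the cell, form dimers and phosphorylate each other, and the phosphorylated tails recruit adaptors that start the MAPK, PI3K and PLCγ cascades. FGF receptors need heparan sulfate or a Klotho protein beside the FGF, PDGF receptors and KIT are close relatives with split kinase domains, MET binds HGF, AXL binds GAS6, and KDR (VEGFR2) is the main VEGF receptor of endothelium. In the developing brain, FGFR1 to FGFR3 are used by neural progenitors, PDGFRA marks oligodendrocyte precursors and PDGFRB marks pericytes.

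Library totals ran from 49849257 to 75087193 counts, with fewer counts in both treated libraries. MYC was abundant in all 4 libraries, BT-16 giving 14275 counts before and 6804 after treatment and CHLA-266 giving 11515 and 7505. SMARCB1 had 827 to 1394 counts in every library, so that its transcript was read in lines of a tumor defined by its loss. Counts per gene cannot show a deletion of part of the gene. The olfactory receptors, a family that these cells are not known to use, were read for comparison. Of 380 olfactory receptor genes, 31.8% had a count in untreated and 77.1% in treated BT-16, and 23.7% had a count in untreated and 55.0% in treated CHLA-266. Their median was 0 counts per kilobase in both untreated libraries, where any gene with a count ranks above all those at 0. Ranks among them before and after treatment are therefore not on a like footing, and a lower rank does not show a lower level. Genes with few counts in the untreated cells were read more often in both treated libraries over the whole table, and this stands beside every low receptor below. Its part in their differences was not tested.

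Of the 10 receptors, PDGFRA and KDR rose after treatment, none fell, and 8 did not pass the threshold in edgeR's quasi-likelihood test without the cell line in the model (adjusted p under 0.05). Of all genes tested, 35.2% were called in that comparison, 16.1% higher and 19.1% lower. At an unadjusted p under 0.05 in the same test, 6 receptors were higher and 1, AXL, was lower. That looser cut takes in at least the 35.2% of all genes called above, and its full share is not given here. Blocking on the cell line, which compares treated and untreated cells of the same line, FGFR1, PDGFRA and KDR were higher and FGFR3 and AXL were lower, against 17.9% and 23.7% of all genes (41.6% in all). DESeq2 without the block called 4 receptors higher (PDGFRA, KIT, MET, KDR) and 0 lower. With the block it called 4 higher (FGFR1, PDGFRA, MET, KDR) and 1 lower (FGFR3). The share of all genes that DESeq2 called is not given here. In the direction of their values alone, 6 receptors (FGFR1, PDGFRA, PDGFRB, KIT, MET, KDR) were higher and 3 (FGFR3, FGFR4, AXL) were lower in both lines, and FGFR2 differed in direction between them. By the same reading, 48.5% of all genes tested were higher in both lines. The 6 of 10 receptors were not tested against that share, and the share lower in both lines is not given here.

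**Figure D1:**
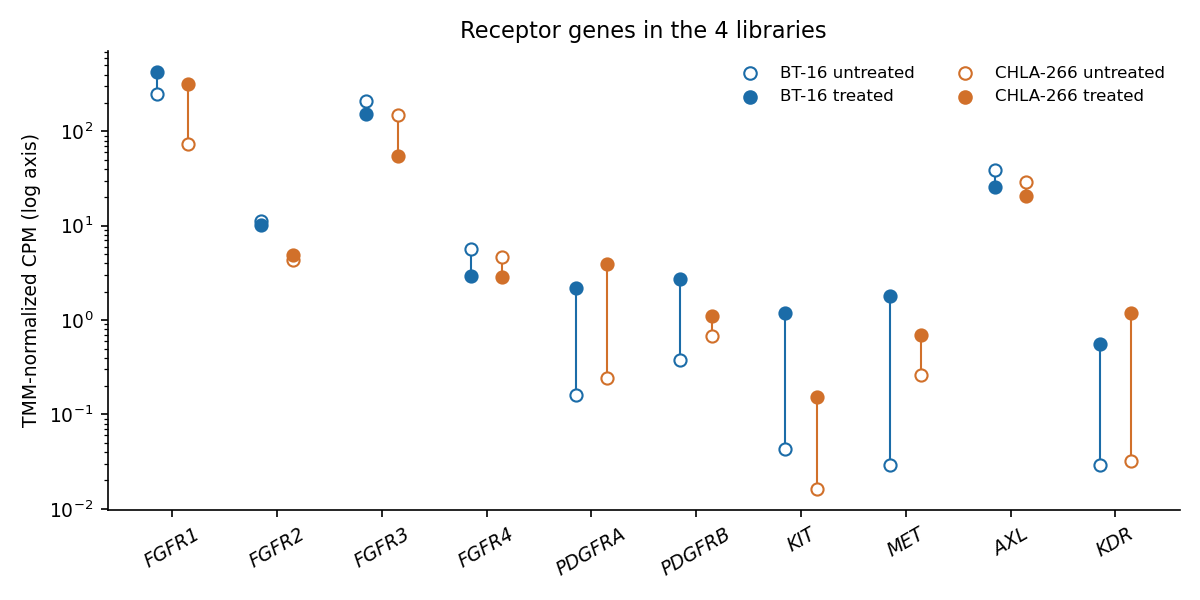
Counts per 1000000 counts of a library after scaling by trimmed means (TMM-normalized CPM, log axis) of the 10 receptor genes in the 4 libraries, with open circles for untreated and filled circles for treated cells, and a line joining the libraries of 1 cell line. FGFR1 and FGFR3 lie between 54.5 and 430 CPM in every library, and PDGFRA, KIT, MET and KDR lie under 0.3 CPM in untreated cells.

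PDGFRA and KDR, the receptors that passed without the block, are neighbours on chromosome 4 of hg38 with KIT between them. In GENCODE release 44, PDGFRA spans positions 54229280 to 54298245 on the plus strand, KIT 54657267 to 54740783 on the plus strand and KDR 55078481 to 55125595 on the minus strand. The 250 bases before the RefSeq start of PDGFRA and of KDR (GRCh38.p14) are given to show how unlike the promoters of these receptors are. They read 5′ to 3′ on the strand of the gene, with GC boxes (GGGCGG or its reverse complement CCGCCC) in capitals, and lie at chr4:54229043-54229292 for PDGFRA and chr4:55125596-55125845 for KDR.
PDGFRA: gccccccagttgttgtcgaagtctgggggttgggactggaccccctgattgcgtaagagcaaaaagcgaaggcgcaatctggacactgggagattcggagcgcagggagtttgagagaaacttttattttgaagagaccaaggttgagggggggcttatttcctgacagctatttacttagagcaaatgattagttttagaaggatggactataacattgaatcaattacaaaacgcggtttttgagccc
KDR: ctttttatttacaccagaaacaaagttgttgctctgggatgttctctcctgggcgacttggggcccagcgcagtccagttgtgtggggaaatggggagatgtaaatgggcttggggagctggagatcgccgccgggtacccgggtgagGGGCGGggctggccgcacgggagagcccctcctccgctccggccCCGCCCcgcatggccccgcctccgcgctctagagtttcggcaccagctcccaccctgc
The PDGFRA window held 8 CpG dinucleotides, 46.8% G or C and 0 GC boxes, whereas the KDR window held 17 CpG, 65.2% G or C and 2 GC boxes. The KIT window (chr4:54657707-54657956) was the richest of the trio, with 34 CpG and 76.4% G or C. It precedes a RefSeq start but lies inside the GENCODE span of KIT, unlike the windows of PDGFRA and KDR. Over 35114 RefSeq promoters of the same length the median was 11 CpG and 58% G or C, and 42.6% held a GC box on either strand. Windows were at hand for 9 receptors, and FGFR3 had 40 CpG and 8 GC boxes. A TATA box (TATAAA, in 10.7% of promoters), an ETS motif (CCGGAAGT, 3.42%) and an AP-1 motif (TGACTCA, 4.20%) matched none of the 9 windows on either strand, and the E-box CAGGTG (17.5%) matched those of FGFR4 and AXL. Such matches describe the letters only.

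PDGFRA, the receptor for PDGF-A and PDGF-C dimers, was counted 11 times before and 128 times after treatment for BT-16, 15 and 206 times for CHLA-266. Both treated libraries were far above both untreated ones, and the groups did not overlap. In CPM the groups did not overlap for KDR, FGFR1, PDGFRB, KIT and MET either, nor, with treated cells lower, for FGFR4 and AXL. The share of all genes without overlap is not given here, so its absence does not set a receptor apart. Treated cells reached 3.09 ± 1.24 CPM (SD, n = 2) and untreated cells 0.202 ± 0.0595 CPM, and the log2 fold change was 3.93 (SE 0.68, edgeR adjusted p = 0.00319). Within a line, the treated library was 13.3-fold higher in BT-16 (7.50 to 28.5) and 15.8-fold higher in CHLA-266 (9.64 to 29.6), where the ranges are exact 95% Clopper-Pearson intervals that, here and below, cover counting error only. The call held under all 10 alternative analyses and without each of the 4 libraries, with log2 fold changes of 3.46 to 4.29 in the latter. Even so the treated level was low. Per kilobase of exon, PDGFRA was higher than 82.9% of olfactory receptor genes in treated BT-16 and 95.3% in treated CHLA-266, against 81.3% and 85.5% in the untreated libraries.

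KDR had 2 counts in each untreated library, 32 counts in treated BT-16 and 62 in treated CHLA-266. The groups did not overlap. The log2 fold change was 4.74 (SE 1.25, edgeR adjusted p = 0.0194). The treated library was 15.5-fold higher in BT-16 (4.87 to 164) and 29.6-fold higher in CHLA-266 (9.75 to 310), and the width of both intervals comes from the 2 counts in untreated cells. It passed in all 9 alternative analyses that could be run. The call was lost without untreated BT-16 (edgeR adjusted p = 0.0515) and without treated CHLA-266 (0.219). KDR lay above 57.6% of olfactory receptor genes per kilobase in treated BT-16 and 85.3% in treated CHLA-266, against 69.2% and 78.7% in the untreated libraries, so that its rank among them was lower after treatment in BT-16. As bulk samples were measured, more cells with a receptor and more RNA per cell cannot be told apart for any gene here.

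KIT, the receptor for stem cell factor, lies between these genes and went from 3 to 69 counts with treatment for BT-16, but from 1 to 8 for CHLA-266. Treated BT-16 alone stood well above the rest. Its log2 fold change was 4.39 with an SE of 1.58 (edgeR adjusted p = 0.0586, 0.115 blocked on the cell line). It passed in 2 of 8 alternative analyses, DESeq2 without the block (adjusted p = 0.0196) and upper-quartile factors (0.0457), and without treated CHLA-266 (0.0230). The ratio of treated to untreated was 23.7 in BT-16 (9.01 to 136) and 6.71 in CHLA-266 (1.27 to 420). KIT was no higher among olfactory receptor genes in treated cells (62.9% and 47.4% lay below it in BT-16 and CHLA-266) than in untreated cells (68.9% and 76.3%). Its untreated ranks, on 3 counts and 1 count, were set mostly by the olfactory receptor genes at 0. The gene for its ligand, KITLG, was abundant throughout, from 13908 to 14225 counts for BT-16, 7965 to 8715 for CHLA-266 (log2 fold change 0.32, SE 0.25, adjusted p = 0.338).

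The 3 receptor genes are 359021 and 337697 bp apart. Within 1000000 bp of them, 14 other genes were tested, of which 2 rose (EXOC1 and CRACD), 4 fell (SRD5A3, TMEM165, CLOCK and CEP135) and 8 did not pass, with a median log2 fold change of 0.37. All 6 that passed lie on the KDR side of the cluster. SRD5A3, a steroid reductase gene of dolichol synthesis and the nearest tested gene beyond KDR, went from 210 to 60 counts for BT-16 and from 229 to 20 for CHLA-266. Over all genes tested, 16.1% rose and 19.1% fell, with a median log2 fold change of 0.24. The genes around the receptors likewise moved in both directions.

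FGFR1 was the receptor with the most counts. BT-16 gave 16973 before and 24836 after treatment, CHLA-266 4536 and 16361. Treated libraries were higher in each line and the groups did not overlap, but untreated the lines lay 3.34-fold apart, and treated BT-16 and CHLA-266 only 1.36-fold. FGFR1 averaged 372 ± 81.2 CPM in treated and 160 ± 122 CPM in untreated cells (SD, n = 2), a log2 fold change of 1.22 (SE 0.45) that did not pass without the block (edgeR adjusted p = 0.0654). Blocked on the cell line it was 1.45 (SE 0.19) and passed (adjusted p = 4.67e-07). It passed in 6 of the 10 alternative analyses, the block among them, and without untreated BT-16, treated BT-16 or treated CHLA-266, each left out in turn, but not without untreated CHLA-266 (log2 fold change 0.60, adjusted p = 0.127). Treated cells were 1.75-fold higher in BT-16 (1.71 to 1.78) and 4.27-fold higher in CHLA-266 (4.13 to 4.42). With 1 library per line and condition, whether the lines differ in response could not be tested, for this or any other receptor.

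FGFR3, which carries the activating mutations of achondroplasia and of bladder cancer, went the other way. Its counts before and after treatment were 14614 and 8776 for BT-16, 9085 and 2832 for CHLA-266. Treated CHLA-266 was the lowest, at 54.5 CPM, whereas treated BT-16 (152 CPM) was slightly above untreated CHLA-266 (148 CPM), so that the groups overlapped. The log2 fold change was -0.80 (SE 0.40, edgeR adjusted p = 0.148) and, blocked on the cell line, -0.96 (SE 0.17, adjusted p = 4.22e-05). It passed in 2 of 10 alternative analyses, both with the block, and without treated BT-16 (-1.72, adjusted p = 5.71e-11). The ratio of treated to untreated was 0.717 in BT-16 (0.698 to 0.736) and 0.369 in CHLA-266 (0.354 to 0.385).

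Setting FGFR1 against FGFR3 within a library needs no scaling between libraries. FGFR1 had 1.16 counts for each FGFR3 count in untreated BT-16 (1.14 to 1.19) and 2.83 in treated BT-16 (2.76 to 2.90). In CHLA-266 the ratio was 0.499 before (0.482 to 0.517) and 5.78 after treatment (5.55 to 6.01). The balance between these receptors moved 2.44-fold toward FGFR1 in BT-16 and 11.6-fold in CHLA-266, and the line with the lower ratio before treatment had the higher one after it.

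FGFR2 and FGFR4, the other FGF receptors, were far lower. FGFR2 counts went from 773 to 595 in BT-16 with treatment and from 269 to 255 in CHLA-266, which separated the lines and not the conditions. Its log2 fold change was -0.04 (SE 0.50, edgeR adjusted p = 0.960), with a sign that turned under other scalings, and the ratio of treated to untreated was 0.919 in BT-16 (0.824 to 1.02) and 1.12 in CHLA-266 (0.942 to 1.34). For FGFR4, the FGF19 receptor of hepatocytes, BT-16 gave 390 counts before and 168 after treatment, CHLA-266 284 and 149. Both treated libraries lay near 2.9 CPM, below both untreated ones (4.61 and 5.65 CPM), yet the log2 fold change of -0.83 (SE 0.38) passed neither without (edgeR adjusted p = 0.120) nor with the block (0.103).

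AXL, the GAS6 receptor, was counted 2660 times before and 1478 times after treatment for BT-16, 1788 and 1063 times for CHLA-266. The untreated libraries (38.6 and 29.0 CPM) lay above the treated ones (25.6 and 20.5 CPM), and the ratio of treated to untreated was much alike in the lines, 0.663 in BT-16 (0.622 to 0.707) and 0.704 in CHLA-266 (0.652 to 0.760). The log2 fold change was -0.55 without the block (SE 0.22, edgeR adjusted p = 0.0777) and -0.55 with it (SE 0.18, adjusted p = 0.0157). AXL passed in 1 of the 10 alternative analyses, the block itself.

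PDGFRB, the pericyte PDGF receptor, went from 26 to 156 counts with treatment for BT-16 and from 42 to 57 for CHLA-266. It was 7.05-fold higher in treated BT-16 (4.71 to 11.3) and 1.60-fold higher in treated CHLA-266 (1.06 to 2.45). Per kilobase, PDGFRB lay above 92.6% of olfactory receptor genes in treated BT-16 and 81.6% in treated CHLA-266. In the untreated libraries these were 93.7% and 96.6%, so that its rank among them was no higher after treatment. The log2 fold change of 1.84 (SE 0.74) did not pass (edgeR adjusted p = 0.0824), and 1 of 10 alternative analyses put it past the threshold. MET, the HGF receptor, went from 2 to 104 counts for BT-16 and from 16 to 36 for CHLA-266. The treated library was 49.9-fold higher in BT-16 (16.8 to 519, from 2 counts) and 2.62-fold higher in CHLA-266 (1.44 to 5.14). Among olfactory receptor genes, MET went from above 69.2% to above 83.7% in BT-16 with treatment, but from 91.1% to 72.1% in CHLA-266. Its log2 fold change of 3.10 (SE 1.16) did not pass either (edgeR adjusted p = 0.0656), although 5 of 9 alternative analyses put it past the threshold. If both reads of a pair had been counted, the intervals would be wider, and on halved counts the CHLA-266 intervals of PDGFRB and KIT take in no difference.

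**Figure D2:**
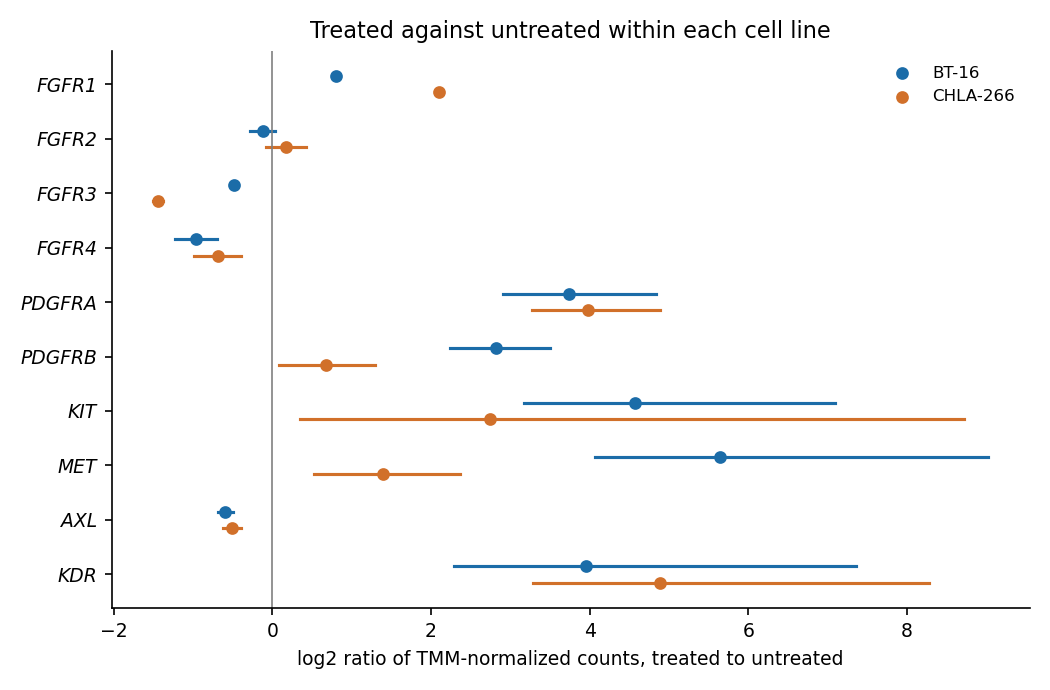
Log2 ratio of treated to untreated TMM-normalized counts within BT-16 (blue) and CHLA-266 (orange) for each receptor, with exact 95% intervals that cover counting error only and are narrower than the point for the most abundant genes. FGFR1 lies at 0.80 and 2.09 and FGFR3 at -0.48 and -1.44, whereas the intervals of KIT, MET and KDR reach from 0.35 to 9.02.

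The fold changes have to be read beside those of genes of the same level, because the whole table shifted with level. The 5904 genes with a mean under 1 CPM over the 4 libraries had a median log2 fold change of 3.22, and 92.5% of them were above 0. KIT, MET and KDR belong there, and 30.9%, 52.1% and 26.1% of these genes had a log2 fold change as high or higher. Of the genes under 1 CPM, 81.7% were higher in both lines, as these 3 receptors were. That share was 53.2% from 1 to 10 CPM and 24.2% at 100 CPM or more. Among the 3238 genes from 1 to 10 CPM, where the median was 0.44 and 24.2% were called higher, 5.40% reached the value of PDGFRA and 21.6% that of PDGFRB, while 13.1% were as low as FGFR4. Among the 2311 genes at 100 CPM or more, whose median was -0.31, 2.81% were as high as FGFR1 and 20.5% as low as FGFR3. Of the genes from 10 to 100 CPM, whose median was -0.32 and of which 35.3% were called lower, 36.9% were as low as AXL or lower. By these ranges FGFR1 and PDGFRA stood nearest to the edge of their levels, and MET lay near the middle of its own. The place of PDGFRA depends on the cut at 1 CPM, because it averaged 1.65 CPM, with 0.159 and 0.244 CPM in untreated BT-16 and CHLA-266. Its log2 fold change of 3.93 lies between those of MET and KIT, which were read against the genes under 1 CPM.

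**Figure D3:**
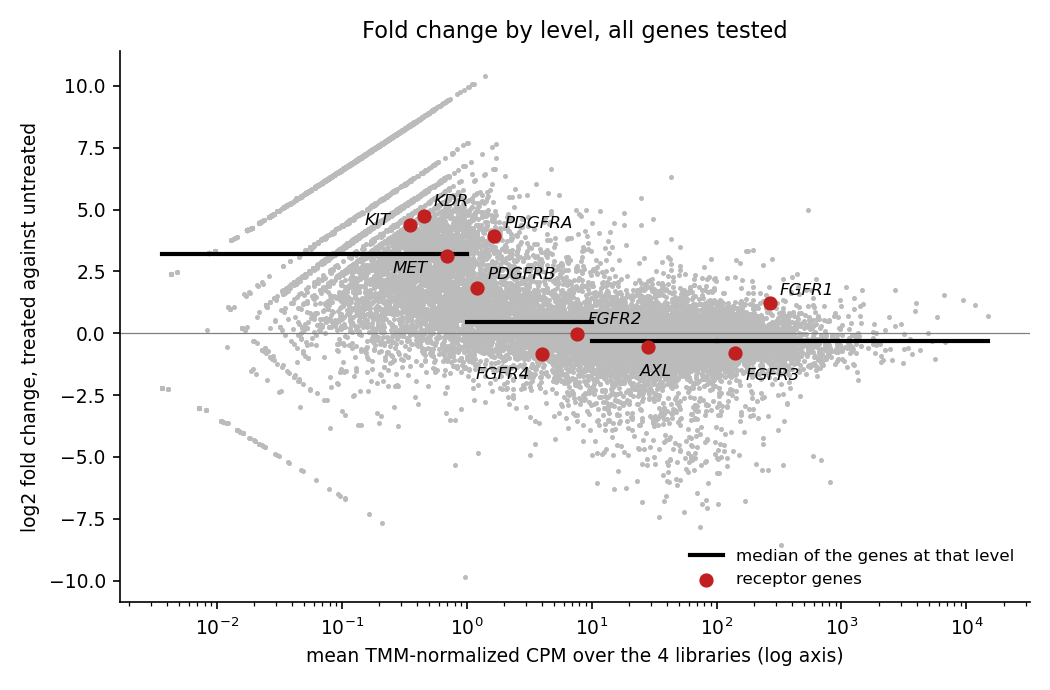
Fitted log2 fold change of treated against untreated cells (edgeR) against the mean TMM-normalized CPM over the 4 libraries (log axis) for the 18066 genes tested in grey, with the 10 receptors in red and the median of each range of level as a black bar. The median falls from 3.22 under 1 CPM to -0.31 at 100 CPM or more, and fold changes of genes at 0 in a condition depend on a small count added by the fit.

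Levels of different receptors were compared per kilobase of the union of a gene's exons. FGFR3 was the highest receptor in untreated BT-16 (43.7 CPM per kilobase), treated BT-16 (31.3) and untreated CHLA-266 (30.4), and FGFR1 in treated CHLA-266 (18.3, against 11.2 for FGFR3). FGFR1 had 14.3, 25.0 and 4.28 CPM per kilobase in the first 3 of these. AXL was next, with 3.98 to 7.51, except that it passed FGFR1 in untreated CHLA-266 (5.66). FGFR4 (0.596 to 1.18) and FGFR2 (0.232 to 0.596) followed, and the other 5 were under 0.42, with PDGFRA above FGFR2 in treated CHLA-266 (0.415 against 0.261). The order of FGFR1 and FGFR3 rests on the length used, because the exons of FGFR1 add up to 17201 bp and its canonical transcript to 5697 bp. Per kilobase of that transcript, FGFR1 was the highest receptor in both treated libraries (75.4 for BT-16, 55.3 for CHLA-266) and FGFR3 in both untreated ones (49.3 and 34.3). FGFR1, FGFR3 and AXL exceeded every olfactory receptor gene in all 4 libraries.

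BT-16 and CHLA-266 were also compared with each other, with the treatment in the model. FGFR1, FGFR2 and FGFR3 were higher in BT-16, and 0 receptors were higher in CHLA-266, where edgeR called 2.3% of all genes different, 1.46% higher in BT-16 and 0.836% higher in CHLA-266. No receptor was higher in CHLA-266 at an unadjusted p under 0.05 either, nor by DESeq2, which called FGFR1 and FGFR3 higher in BT-16. The log2 difference was 1.09 for FGFR1 (SE 0.19, adjusted p = 0.000644), 1.21 for FGFR2 (SE 0.30, adjusted p = 0.0207) and 1.00 for FGFR3 (SE 0.17, adjusted p = 0.000511). All 3 kept their direction in both conditions. FGFR1 was 3.34-fold higher in untreated (3.23 to 3.45) and 1.36-fold in treated cells (1.34 to 1.39), FGFR2 2.56-fold (2.23 to 2.96) and 2.10-fold (1.81 to 2.44), and FGFR3 1.44-fold (1.40 to 1.47) and 2.79-fold (2.67 to 2.91). The calls were lost when genes under 10 counts in any library were left out (adjusted p of 0.0759, 0.106 and 0.0704). AXL missed the threshold (0.37, SE 0.18, adjusted p = 0.514), as did FGFR4 (0.16, SE 0.40, adjusted p = 0.990) and the other 5 receptors (adjusted p of 0.856 to 0.995).

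**Figure D4:**
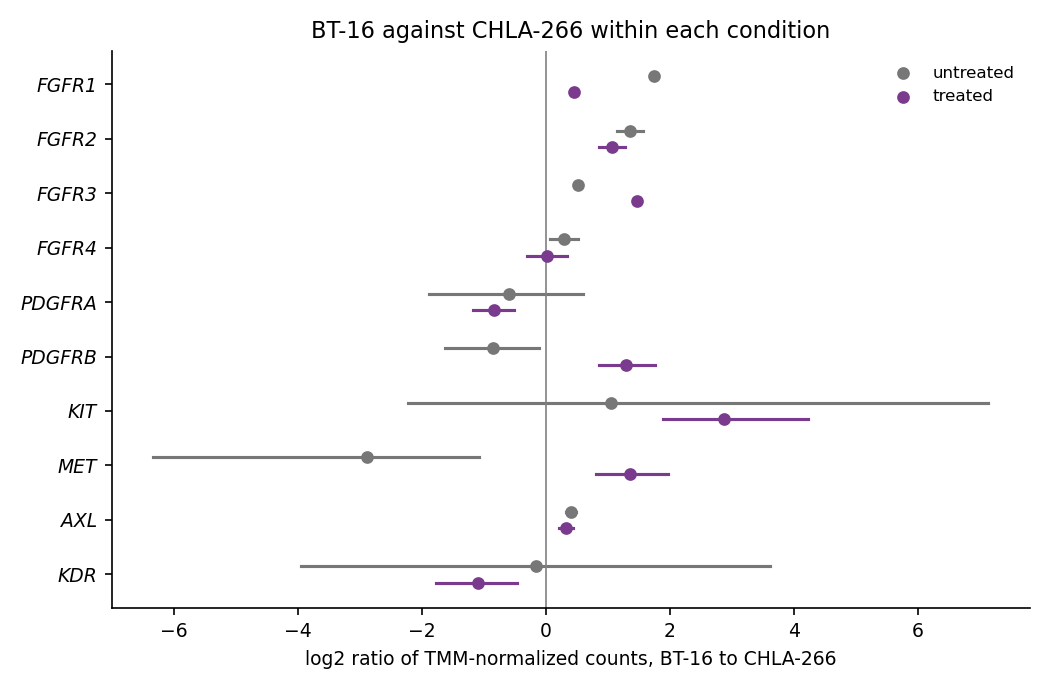
Log2 ratio of BT-16 to CHLA-266 in untreated (grey) and treated cells (purple) for each receptor, with exact 95% intervals for counting error only. FGFR1, FGFR2 and FGFR3 lie above 0 in both conditions, and PDGFRB and MET lie below 0 in untreated and above 0 in treated cells.

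Over the 4 libraries, the genes with the pattern most like FGFR3 were AGPAT2 and SWSAP1, at Euclidean distances of 0.112 and 0.141 between centred log2 CPM, among the 12620 genes counted at least 10 times in each library. Those most like FGFR1 were EDN2 (0.119) and STYK1 (0.174), and those most like AXL were SLC35D2 (0.0152) and LANCL2 (0.0163). With 4 libraries such likeness is a description. EDN2 went from 96 to 152 counts for BT-16 and from 25 to 91 for CHLA-266, far fewer counts than FGFR1. Its shared direction with FGFR1 follows from how it was chosen.

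Genes of the same pathways were read from the same fit. Of 78 such genes in 6 lists, 21 rose and 7 fell. These are 26.9% and 8.97%, against 16.1% and 19.1% of all genes. Among 17 FGF ligands, 3 rose (17.6%) and 0 fell. Their median log2 fold change was 2.32, but 13 of them averaged under 1 CPM, and the genes at that level had a median of 3.22 with 20.2% called higher. FGF18, a ligand of FGFR3 in bone and lung, rose, from 215 to 751 counts for BT-16 and 157 to 649 for CHLA-266 (log2 fold change 2.17, SE 0.31, adjusted p = 0.00129). FGF9 (4, 62, 0 and 24 counts in the same order, adjusted p = 0.0482) and the metabolic hormone FGF21 (0, 34, 0 and 21, at least 21.8-fold higher against a floor of 3 counts over both untreated libraries, adjusted p = 0.0298) rose from few or no counts. FGF2, the basic FGF that binds several of these receptors, was the highest ligand of the list per kilobase and went from 24427 to 18156 counts for BT-16 and from 21148 to 19854 for CHLA-266. Its log2 fold change was -0.0032 (SE 0.17, adjusted p = 0.988). FGF9 lost its call without treated BT-16 or untreated CHLA-266 (adjusted p = 0.237 and 0.102), and FGF21 without any 1 of the 4 libraries (0.0549 to 0.0831) and with the block (0.0524).

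Of 12 ligands of the other receptors, 2 rose and 2 fell, 16.7% each and near the shares over all genes (median 0.09). HGF, the MET ligand, had 0 counts in both untreated libraries and 42 and 38 in treated BT-16 and CHLA-266, at least 31.7-fold higher (adjusted p = 0.0128). Its treated level per kilobase was low, above 54.7% of olfactory receptor genes in BT-16 and 65.0% in CHLA-266. VEGFA, the ligand of KDR, rose by 0.72 on the log2 scale (SE 0.18, adjusted p = 0.0167), from 4325 to 4859 counts for BT-16 and 3357 to 5679 for CHLA-266. PDGFC, a PDGFRA ligand, fell in each line while its receptor rose, from 6783 to 2032 counts for BT-16, 5892 to 879 for CHLA-266 (log2 fold change -1.90, SE 0.30, adjusted p = 0.00216). PGF, which binds FLT1, also fell (-1.89, SE 0.36, adjusted p = 0.00481). VEGFB, the highest of the list per kilobase by the mean over the 4 libraries, though below KITLG in both BT-16 libraries, had 3216 to 4409 counts and did not pass (-0.16, SE 0.17, adjusted p = 0.476). The VEGFA call was lost without untreated or treated CHLA-266 (adjusted p = 0.0918 and 0.0557).

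Coreceptors moved in both directions, 3 of 10 higher and 2 lower, against 16.1% and 19.1% of all genes (median 0.50). NRP2, a semaphorin and VEGF coreceptor, rose from 14 to 435 counts for BT-16 and 8 to 515 for CHLA-266 (log2 fold change 5.69, SE 0.49, adjusted p = 9.40e-05). The heparan sulfate proteoglycan SDC2 rose (10, 228, 2 and 94 counts, adjusted p = 0.00387), as did GPC1 (0.67, SE 0.22, adjusted p = 0.0461), while SDC1 fell from 14918 to 4044 counts for BT-16 and 11527 to 2556 for CHLA-266 (-1.76, SE 0.21, adjusted p = 0.000487). FGFRL1, an FGF receptor without a kinase domain, fell (-0.90, SE 0.30, adjusted p = 0.0475). SDC3 had the highest mean level per kilobase of the list over the 4 libraries, though SDC1 was above it in both untreated ones, and did not pass (0.33, SE 0.25, adjusted p = 0.306). GPC1 lost its call without untreated or treated CHLA-266 (adjusted p = 0.218 and 0.192), and FGFRL1 without untreated BT-16 or treated CHLA-266 (0.205 and 0.102). FGFRL1 passed in only 4 of 11 alternative analyses, with adjusted p up to 0.187.

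Among 7 related receptors 1 rose and 1 fell (14.3% each), and both were VEGF receptors. FLT1 (VEGFR1) rose beside KDR, from 9 to 84 counts for BT-16, 8 to 78 for CHLA-266 (log2 fold change 3.48, SE 0.83, adjusted p = 0.0131). Its rank among olfactory receptor genes per kilobase was lower after treatment, from above 76.1% to 66.3% in BT-16 and from 80.8% to 76.6% in CHLA-266. FLT4 (VEGFR3), the lymphatic receptor, started from far more counts and fell, from 2563 to 287 in BT-16 and from 1834 to 274 in CHLA-266 (-2.71, SE 0.23, adjusted p = 8.61e-05). MERTK, an AXL relative and the highest of the list per kilobase, did not pass (0.38, SE 0.18, adjusted p = 0.138). The FLT1 call was lost without treated CHLA-266 (adjusted p = 0.0565).

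Of 15 adaptors and E3 ligases, 4 rose (26.7%) and 0 fell without the block, and 5 rose and 2 fell with it (median 0.17). LRIG1, a membrane protein that limits receptor signalling, rose from 27 to 211 counts for BT-16 and 33 to 153 for CHLA-266 (2.83, SE 0.57, adjusted p = 0.00643). The ubiquitin ligase gene CBLB (0.93, SE 0.27, adjusted p = 0.0275) and the adaptor gene SHC1 (0.62, SE 0.18, adjusted p = 0.0292), the highest of the list per kilobase, rose less. Of 17 genes known to be induced by MAPK signalling, 8 rose (47.1%) and 2 fell (11.8%, median 0.54). DUSP4, a phosphatase of ERK, rose from 1309 to 4258 counts for BT-16 and 655 to 5222 for CHLA-266 (2.55, SE 0.29, adjusted p = 0.000407). The feedback inhibitors SPRY4 (1.18, SE 0.16, adjusted p = 0.00110) and SPRED2 (1.00, SE 0.16, adjusted p = 0.00207) rose, while SPRY2 fell slightly (-0.51, SE 0.16, adjusted p = 0.0328). EGR1, an immediate early transcription factor, fell from 11311 to 1022 counts for BT-16 and 4862 to 537 for CHLA-266 (-3.12, SE 0.37, adjusted p = 0.000552). Genes of this list therefore did not share a direction. CBLB lost its call without treated BT-16 or untreated CHLA-266 (adjusted p = 0.0897 and 0.126), SHC1 without untreated CHLA-266 (0.191) and SPRY2 without any 1 of the 4 libraries (0.0690 to 0.150), and SPRY2 passed in 7 of 11 alternative analyses (adjusted p up to 0.394).

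**Figure D5:**
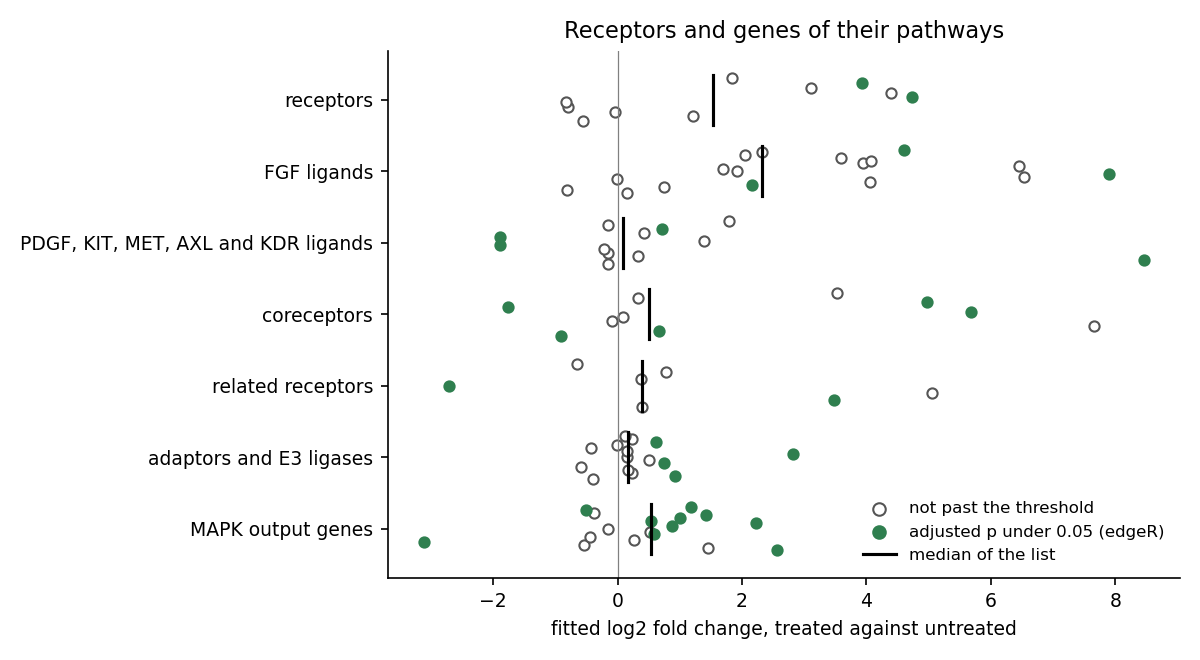
Fitted log2 fold change of treated against untreated cells for the 10 receptors and the 78 genes of their pathways, by list, with filled points for adjusted p under 0.05 (edgeR) and a bar at the median of each list. The median is 2.32 for FGF ligands and 0.09 to 0.54 for the other 5 pathway lists, and values above 6 belong to genes with 0 counts in untreated cells, where the fitted value depends on a small count added by the fit.

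Several receptors mark other cells, so the markers of those cells were read too. The summed level of 10 endothelial markers was 2.75 CPM before and 16.5 after treatment for BT-16, 1.58 and 11.1 for CHLA-266, and 4 of them rose, with VWF (45, 405, 40 and 216 counts) the most abundant. The sum of 8 oligodendrocyte precursor markers, known to accompany PDGFRA, was 1.54 CPM before and 8.96 after treatment for BT-16, 5.02 and 7.49 for CHLA-266. Of these, 3 rose, and the marker with the most counts, OLIG1 (68, 51, 240 and 69), did not pass. The sum of 10 mast cell and melanocyte markers, known to accompany KIT, ran from 2.91 to 10.2 CPM with 1 higher, and PMEL had the most counts. The sum of 10 macrophage markers ran from 0.796 to 7.51 CPM with 4 higher, led in counts by PTPRC, and no marker of any list was at 0 in all 4 libraries. The sum of 10 mural cell and fibroblast markers, known to accompany PDGFRB, was 323 to 522 CPM, nearly all of it NOTCH3, and 2 rose. Of all genes tested, 16.1% were called higher, and of those averaging under 1 CPM 20.2%, with a median log2 fold change of 3.22. Under 1 CPM lay 8 of the endothelial, 6 of the oligodendrocyte precursor and 7 of the mast cell and melanocyte markers. So did 9 of the macrophage and 5 of the mural cell and fibroblast markers. All the marker sums were higher in the treated library of each line, as were PDGFRA, PDGFRB, KIT and KDR, and their part in the receptor differences was not tested.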

How the data were processed

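RNA of BT-16 and CHLA-266, untreated and treated (1 library each), had been made into libraries with the SMART-Seq Stranded kit. Per the submitters' processing notes, reads were demultiplexed with bcl2fastq 2.20 and aligned to hg38 with STAR; whether single reads or read pairs were counted is not given in the sources used here. The deposited table holds read counts (handled as estimated counts, since 5 values, from 2 genes, had decimals and were rounded) from which the authors had removed repeated genes and genes of the sex chromosomes. A further table deposited by the authors holds DESeq2 variance-stabilized values near a log2 scale for 17553 genes, used only as an alternative. Between 20.5% and 34.2% of counts from 1 to 20 were odd, and a halved table was tried because both reads of a pair may have been counted.

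Genes with a nonzero total were tested with edgeR 4.0.16 (quasi-likelihood, TMM, Benjamini-Hochberg over 18066 genes), 2 treated against 2 untreated libraries. The cell line as a block was an alternative, and the pairs come from the lines themselves (correlation of deviations between conditions 0.254 over 12620 genes). Lines were compared with the treatment in the model. Ratios within a line had 0.5 counts added. DESeq2 1.42.0 and limma 3.58.1 served as alternatives, and the fits were tested on simulated data. An exact permutation test of 2 against 2 cannot go below p = 0.333. Lengths and positions were from GENCODE release 44. Receptors, lists and tests were chosen with earlier results of these data known. Named genes were all receptors and, per pathway list, up to 3 of smallest adjusted p in each direction that moved alike in both lines and the highest per kilobase; for the 3 highest receptors the 2 genes of nearest pattern; per marker list the gene of most counts and any at 0; and SMARCB1 and MYC. KITLG and the genes around PDGFRA, KIT and KDR were named after their values were seen.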

Additional observations from a re-analysis of the deposited data

Results flagged for a closer look

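FGFR2 moved in opposite directions in the 2 lines, its treated to untreated log2 ratio being -0.12 in BT-16 (-0.28 to 0.03) and 0.17 in CHLA-266 (-0.09 to 0.42), and both counting intervals take in 0. PDGFRB was lower in BT-16 than in CHLA-266 before treatment (log2 ratio -0.85, -1.62 to -0.12) and higher after it (1.29, 0.85 to 1.76). MET showed the same turn, from -2.89 (-6.33 to -1.08, on 2 and 16 counts) in untreated cells to 1.36 (0.82 to 1.97) in treated cells. With 1 library per line and condition, none of these 3 differences was tested.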

How the results depend on the processing

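Receptors called higher numbered 2, against 4 with DESeq2, with or without the cell line as a replicate block, 5 with upper-quartile factors and 4 on halved counts, and 2 to 5 when 1 library was left out (5 without treated CHLA-266). Receptors called lower numbered 0, against 2 with the edgeR block and 1 with the DESeq2 block, and 0 to 2 when 1 library was left out (2 without treated BT-16). Pathway genes called higher numbered 21, against 34 with upper-quartile factors, 12 with a log2 fold change over 1, and 12 to 20 when 1 library was left out (12 without untreated CHLA-266). Those called lower numbered 7, against 11 with the block, and 5 to 10 when 1 library was left out. Receptors higher in BT-16 numbered 3, against 0 without the treatment in the model, 0 with at least 10 counts in every library and 1 with edgeR's filterByExpr. Shares of all genes called higher after treatment are given here only for the main fit and the edgeR block. Under the other alternatives the receptor and pathway counts thus have no background beside them. Upper-quartile factors also moved the median log2 fold change of all genes from 0.24 to 0.59. With the replicate block in edgeR the only receptors to change call were FGFR1, FGFR3 and AXL, and of the named pathway genes FGF21. Of 22 named pathway genes that passed, 13 passed without each library in turn and 14 in every alternative analysis.

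The log2 fold change of FGFR2 turned from -0.04 to 0.019 with the replicate block, 0.045 with DESeq2, 0.088 with DESeq2 and the block, 0.045 with DESeq2 size factors, 0.33 with upper-quartile factors, 0.21 with library totals, 0.16 with at least 10 counts, 0.0042 with filterByExpr and 0.050 with limma on the variance-stabilized values, and it ran from -0.66 to 0.80 when 1 library was left out (0.80 without untreated BT-16, 0.42 without treated CHLA-266). The line difference of MET turned from -0.48 to 0.94 without the treatment and 0.075 with limma. The treatment log2 fold change of FGF2 turned from -0.0032 to 0.063 with DESeq2, 0.058 with DESeq2 and the block, 0.063 with DESeq2 size factors, 0.34 with upper-quartile factors, 0.22 with library totals, 0.18 with at least 10 counts, 0.031 with filterByExpr, 0.057 with limma and 0.015 on halved counts, and ran from -0.14 to 0.13 when 1 library was left out (0.019 without untreated BT-16), and that of VEGFB from -0.16 to 0.19, 0.068 and 0.024 with upper-quartile factors, library totals and at least 10 counts. Over all genes, 3454 were called lower, against 1895 with upper-quartile factors and 1721 with a log2 fold change over 1. Line calls over all genes, 264 and 151 higher in BT-16 and CHLA-266, fell to 0 and 0 without the treatment and lay between 85 and 477 and between 45 and 272 under the other alternatives, lowest with at least 10 counts. Scaling moved the median log2 fold change of all genes from 0.24 with TMM to 0.59 with upper-quartile factors and 0.46 with library totals, and PDGFRA and KDR passed under each. FGFR3 was the highest receptor per kilobase in 3 libraries by exon union and 2 by canonical transcript, a length tried after seeing the data. The causes were not tested. KIT, MET and KDR had under 10 counts in at least 1 library.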
